A study of Homo sapiens with 12 samples.

Results

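NGI-1 is a small molecule that inhibits the oligosaccharyltransferase (OST) complex. The comparison described here sets cells kept in NGI-1 for 5 days against cells kept in it for 3 days, across the whole transcriptome. Total RNA was sequenced from 12 libraries labelled as MM1S, a human multiple myeloma cell line, with 3 libraries at each of 4 time points, days 0, 2, 3 and 5. The members of the comparison are the 6 libraries of the later days, H7, H8 and H9 (3 days in 10 μM NGI-1) and H10, H11 and H12 (5 days in 10 μM NGI-1). By the labels and the paper's methods, all 6 carry the same agent at the same dose and differ in time alone. None of the 12 libraries is labelled as an untreated control of either day. Longer time in NGI-1, longer time in culture and any handling that differed between the days thus cannot be told apart. The day 0 libraries also carry the treatment label NGI-1, while the paper calls these cells untreated. The table holds 59276 features named by gene symbol, and the 11939 that reached 1 TPM in 3 or more of the 12 libraries were tested. TPM is a length-corrected share of all transcripts in a library.

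The OST complex attaches a preassembled sugar tree to asparagines of proteins that enter the endoplasmic reticulum (ER). Plasma cells, from which myeloma arises, make and secrete large amounts of glycosylated immunoglobulin, and so depend on ER folding capacity. Proteins that fail to fold set off the unfolded protein response, in which PERK phosphorylates eIF2α, ATF4 is translated, and ATF4 raises DDIT3 (CHOP), a transcription factor linked to cell death under lasting ER stress. Cells that stop dividing lose the mRNAs of the mitotic machinery, which are transcribed in the second part of the cell cycle.

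By the labels each library had over 60 M read pairs, but TPM keeps no read counts and the depth behind a value cannot be recovered from it. Across the tested genes, which are not independent replicates, Pearson's r was 0.985 to 0.992 for the 6 pairs of libraries within day 3 or within day 5, and 0.976 to 0.987 for the 9 pairs between them. Nothing in the labels says that the 3 libraries of a day came from separate cultures, so p-values measure only the spread between these libraries, which may be technical. All 8 plasma cell markers checked were expressed. Of the markers of 6 other cell types (25 genes), only CD79B and CD3E reached a TPM of 1 in 3 or more of the 6 libraries. MM1S is known as a line that makes lambda light chain and carries a translocation that activates MAF. Here, the kappa gene IGKC was listed at 7071 to 17020 TPM in the 6 libraries, against 588 to 648 TPM for IGLC1 and 2.44 to 3.71 TPM for IGLC2, and MAF lay between 2.27 and 5.01 TPM. FGFR3 and NSD2, genes known to be activated by a different myeloma translocation, lay between 147 and 281 TPM and between 46.25 and 75.5 TPM. These values go against the label MM1S, and the cells are called by that label only as the name the submitters gave.

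Ribosomal protein mRNAs held a larger share of the transcriptome on day 5 than on day 3, and immunoglobulin mRNAs a smaller one. The 79 genes of cytosolic ribosomal proteins, the protein part of the ribosome, held 43.3%, 40.4% and 44.6% of all TPM in H7, H8 and H9, and 49.4%, 49.03% and 47.7% in H10, H11 and H12. Every day 5 library was above every day 3 library, with means of 42.8% ± 2.11 (SD, n = 3) and 48.7% ± 0.878 (SD, n = 3). This is a gain of the sum and not of each gene. The median log2 change of TPM + 1 over the 79 genes was -0.18. The exact two-sided permutation test over the 20 ways to choose 3 of 6 libraries gave p = 0.1, the smallest it can give here. Mitochondrially encoded transcripts held 13.2% ± 0.758 (SD, n = 3) on day 3 and 14.2% ± 0.642 (SD, n = 3) on day 5, and the groups overlapped (exact permutation p = 0.2). The immunoglobulin share was 3.42%, 4.07% and 3.45% in the day 3 libraries and 1.78%, 2.04% and 2.45% in the day 5 libraries, without overlap (exact permutation p = 0.1). The 20 most abundant features together held 34.5% ± 0.115 and 37.7% ± 1.125 (SD, n = 3 each), again without overlap (exact permutation p = 0.1). With those 20 features taken out of both the lists and the total, the day 5 minus day 3 difference of the ribosomal protein share was 2.51 percentage points in place of 5.95, and that of the immunoglobulin share -0.317 in place of -1.56.

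Because TPM values are shares, a gain of such abundant mRNAs lowers the value of every other gene. The median tested gene changed by -0.25 on the log2 scale between day 3 and day 5 as deposited. Each comparison was therefore read on 2 scales, the deposited one and one called rescaled, in which each library was divided by 1 factor that set to 0 the median log2 difference from the mean over libraries, across 5433 features at a mean of 10 TPM or more. After rescaling the median was 0.02, a shift of 0.27. Neither scale gives amounts of RNA per cell. In bulk RNA, fewer cells of a state and less RNA per cell cannot be told apart.

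As deposited, limma called 1565 genes lower on day 5, or 13.1% of those tested, and 80 genes higher, or 0.670%. A call needed a Benjamini-Hochberg adjusted p under 0.05 and a log2 change over 0.5 in size. After rescaling, 242 genes were called lower (2.03%) and 529 higher (4.43%). The split of calls thus turned with the scaling, from 95.1% lower as deposited to 68.6% higher after rescaling. Calls made on both scales in the same direction numbered 239 lower (2.00%) and 80 higher (0.670%). Rescaling moved most changes upward, so genes called higher as deposited were likely to stay called, and all 80 did. Likewise, 239 of the 242 genes called lower after rescaling were also called lower as deposited. A call on both scales is thus not an independent second check. Of the 239, 57 had a deposited log2 change below -1, and of the 80, 6 had one above 1. In the text below, a gene or group is said to fall or rise only where the call was made on both scales, and values are deposited log2 changes of TPM + 1 with their standard errors (SE) unless the text says rescaled. On this scale the changes of genes at a few TPM are understated. Counts of called list members below stand beside shares over all tested genes of 13.1% lower and 0.670% higher as deposited. After rescaling these shares were 2.03% and 4.43%. The deposited count of lower calls also depended on single libraries. It was 952 without H8, 906 without H10 and 3016 without H12. The median log2 difference of a library from the day 3 mean was 0.12 in H8 and -0.08 in H12, against -0.38 in H10 and -0.30 in H11.

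**Figure D1:**
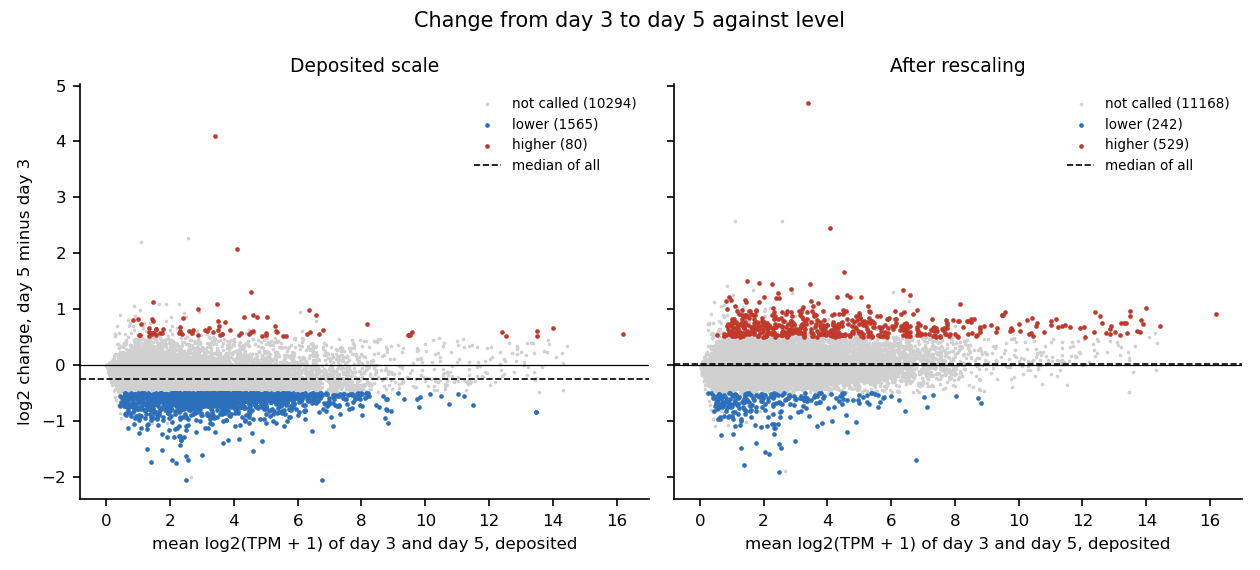
Log2 change from day 3 to day 5 (y) against the mean log2(TPM + 1) of the 2 days (x) for the 11939 tested genes, as deposited (left) and after rescaling (right), with genes called lower in blue and higher in red. The dashed median line lies at -0.25 on the left and 0.02 on the right, with 1565 lower and 80 higher calls on the left and 242 lower and 529 higher calls on the right.

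By rule, the 15 largest falls and the 15 largest rises were named among genes called on both scales with a mean TPM of at least 10 on either day and no overlap between libraries of the 2 days. S100A4 (chr1:153543613-153550136, minus strand, in GENCODE 29 on GRCh38), a calcium-binding protein linked to cell motility, was listed at 9.74, 11.7 and 10.3 TPM in H7, H8 and H9 and at 0.854, 1.82 and 3.01 TPM in H10, H11 and H12. All day 5 values lay far under the lowest day 3 value, and the log2 change was -2.07 (SE 0.21, adjusted p = 4.72e-05). AMPD1 (chr1:114673090-114695618, minus strand), which deaminates AMP to IMP, was listed at 206.5, 269.7 and 198.8 TPM on day 3 and at 47.1, 52.1 and 59.7 TPM on day 5. The 3 day 5 libraries lay close together and far under day 3, with a log2 change of -2.06 (SE 0.11, adjusted p = 5.78e-07). PRPS1, which makes the sugar phosphate from which purine and pyrimidine nucleotides are built, went from 68.0, 76.0 and 63.9 TPM to 31.6, 30.3 and 33.7 TPM, again without overlap (log2 change -1.09, SE 0.09).

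Several of the falling genes encode surface receptors. CD38 (chr4:15778275-15853230, plus strand), an NAD-consuming surface enzyme and a target of antibody therapy in myeloma, was listed at 41.6, 55.0 and 43.95 TPM on day 3 and at 14.9, 17.1 and 20.8 TPM on day 5. H8 was the highest and H10 the lowest of the 6 libraries, and the log2 change was -1.36 (SE 0.13, adjusted p = 4.06e-05). The chemokine receptor CCR1 fell by 1.21 (SE 0.15), from 13.5 to 17.2 TPM across day 3 to between 4.55 and 7.90 TPM on day 5. The integrin chain ITGA8 (log2 change -1.40), the GABA receptor subunit GABRR1 (-1.54), the butyrophilin BTN2A2 (-1.13) and the transmembrane protein EVI2B (-1.23) fell in the same manner, each with its 3 day 5 libraries below all day 3 libraries. NRAS (chr1:114704469-114716894, minus strand), a small GTPase upstream of MAP kinases, was listed at 132.8, 133.5 and 124.3 TPM on day 3 and at 50.6, 59.2 and 61.5 TPM on day 5, a log2 change of -1.18 (SE 0.09, adjusted p = 7.69e-06). DUSP6, a phosphatase whose mRNA is induced by MAP kinase activity, lies outside the 15 named falls and fell by 0.82 (SE 0.10). A link between the falls of NRAS and DUSP6 was not tested. The other named falls were BGLAP, which encodes osteocalcin (-1.61), the aspartic protease NAPSA (-1.35), the transcribed pseudogene AL357143.1 (-1.33), the noncoding RNA ELFN1-AS1 (-1.13) and the interferon-induced IFI6 (-1.10).

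Named rises were of mixed kinds. SLPI (chr20:45252239-45254564, minus strand), a secreted inhibitor of leukocyte proteases, was listed at 7.36, 7.32 and 7.11 TPM on day 3 and at 36.5, 31.5 and 34.0 TPM on day 5. The spread within each day was small beside the gap, and the log2 change was 2.08 (SE 0.12, adjusted p = 5.78e-07). CLK1 (chr2:200853009-200864744, minus strand), a kinase that phosphorylates splicing factors, was listed at 60.4, 54.4 and 57.9 TPM on day 3 and at 109.0, 108.6 and 129.0 TPM on day 5. Its log2 change was 0.99 (SE 0.12, adjusted p = 0.000148), with no overlap. DDIT3 is described below. GTF2IRD2B, a member of a transcription factor family with near-identical copies, rose by 1.09 (SE 0.22), and the protein-coding genes C1orf53 and FAM171B by 0.85 and 0.78. Of the other named rises, AC099560.2, AC005912.1, AC099336.2 and RPS15AP24 are processed pseudogenes and AC244669.1 an unprocessed one in the annotation, with log2 changes of 1.30, 0.90, 0.73, 0.70 and 0.85. Reads of such copies can be shared with their parent genes, so their values are uncertain. TIPARP-AS1 (0.90) and AL359513.1 (0.70) are annotated as long noncoding RNAs, and AL096870.10 (0.76) was not found in the annotation used here. The histone gene H2AC18, which has a near-identical neighbour, was listed at 0 in H7 and H9 and at 15.5 TPM in H8, against 66.4, 43.9 and 26.5 TPM on day 5. A listed 0 can be a failed estimate, and the call was lost in 5 of the 15 alternatives tried at the same fold threshold. The calls of AC099560.2, TIPARP-AS1, AL096870.10 and AL359513.1 were also lost in at least 1 alternative, and the other 25 named genes were called in the same direction in all 15, which leave out the 2 other fold thresholds. The sources used here do not say whether strand was used in counting, so the values of the antisense RNAs TIPARP-AS1 and ELFN1-AS1 and of EVI2B, which lies within NF1, may hold reads of the partner gene.

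The mitotic machinery, already low on day 3, fell again by day 5. Of the 37 mitosis genes tested, 25 were called lower as deposited and 23 after rescaling, 22 on both, and 0 were called higher on either scale. Their median log2 change was 0.45 below the median of all tested genes. The summed level of the 37 genes was 91.8, 97.1 and 85.8 TPM in H7, H8 and H9 and 34.4, 42.2 and 35.7 TPM in H10, H11 and H12. It had been 2704 ± 38.7 TPM on day 0 and 828 ± 9.92 TPM on day 2 (SD, n = 3 each), and 27 of the 37 genes had a mean under 1 TPM on day 5 against 13 on day 3. Cyclin B1 (CCNB1), the partner of CDK1 at mitotic entry, was listed at 5.86, 5.98 and 5.62 TPM on day 3 and at 1.68, 2.17 and 1.503 TPM on day 5. The libraries of each day lay within 1 TPM of each other, and the log2 change was -1.30 (SE 0.10, adjusted p = 7.69e-06). PTTG1, the securin that holds back chromatid separation, was listed at 9.91, 8.98 and 10.04 TPM and then at 2.60, 2.56 and 1.73 TPM, a log2 change of -1.70 (SE 0.11). UBE2C, a ubiquitin-conjugating enzyme of mitotic exit, fell by 1.63 (SE 0.14), and the kinetochore subunits NUF2 and NDC80 by 1.35 and 1.09. The kinases CDK1 (-0.78), AURKA (-0.69), BUB1 (-1.07), TTK (-0.90) and NEK2 (-0.71) fell too, as did TOP2A (-0.79), TPX2 (-0.95) and the proliferation marker MKI67 (-0.56). UBE2S, another ubiquitin-conjugating enzyme of mitotic exit, stood apart with a log2 change of 0.46 and no call.

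The cell cycle homology region (CHR, TTTGAA) and the CCAAT box are short elements known from promoters of late cell cycle genes. The promoters of CCNB2 and CDC20 are shown because both genes fell and carry both elements. These 2 genes were chosen after their values were seen. Of other mitosis genes that fell, CDK1 and TOP2A also held both elements in the 250 bases before the start. CCNB1, CCNA2 and BUB1 held CCAAT but no TTTGAA match there. CCNB2, the second B-type cyclin, was listed at 1.93, 2.32 and 2.19 TPM on day 3 and at 0.323, 0.353 and 0.352 TPM on day 5. CDC20, which activates the anaphase-promoting complex, was listed at 2.55, 2.38 and 1.77 TPM and then at 0.511, 0.648 and 0.825 TPM. Neither gene's groups overlapped, with log2 changes of -1.23 (SE 0.11) and -0.96 (SE 0.12). The sequences are the 250 bases before the RefSeq start on GRCh38.p14, chr15:59104896-59105145 (plus strand) and chr1:43358731-43358980 (plus strand), written along the gene, with CCAAT and TTTGAA matches on either strand in capitals.
CCNB2: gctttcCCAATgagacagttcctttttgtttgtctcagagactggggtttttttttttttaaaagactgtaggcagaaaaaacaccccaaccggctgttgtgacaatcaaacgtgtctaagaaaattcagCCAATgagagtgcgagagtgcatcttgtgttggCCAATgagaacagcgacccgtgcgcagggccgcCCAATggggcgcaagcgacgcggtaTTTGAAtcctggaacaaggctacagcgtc
CDC20: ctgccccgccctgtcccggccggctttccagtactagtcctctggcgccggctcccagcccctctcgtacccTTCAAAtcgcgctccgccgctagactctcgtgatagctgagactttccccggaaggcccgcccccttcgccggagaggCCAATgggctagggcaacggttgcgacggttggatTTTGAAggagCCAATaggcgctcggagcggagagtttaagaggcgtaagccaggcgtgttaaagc
Among the 8941 tested genes with a RefSeq promoter, TTTGAA was found on either strand in 7.99%, against 18.6% of the 172 promoters of genes that fell and 5.88% of the 51 promoters of genes that rose. CCAAT was found in 36.3%, 47.7% and 39.2% of these sets, and the E2F motif TTTGGCGC in 0.906%, 2.33% and 0%. The TATAAA box was found in 4.88%, 9.88% and 11.8%. The E-box CACGTG was found in 9.44%, 11.6% and 5.88%, the AP-1 motif TGANTCA in 3.37%, 4.07% and 1.96%, and the cAMP response element TGACGTCA in 3.12%, 3.49% and 0%. The nuclear respiratory factor 1 motif was found in 2.21%, 0.581% and 0%. These shares describe letters in a window on both strands, and matches of different motifs may overlap.

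Genes of DNA replication changed less evenly. Of 55 tested, 15 were called lower and 1 higher as deposited, and 6 lower and 2 higher after rescaling, with a median 0.08 below that of all genes. RRM2, the regulated subunit of ribonucleotide reductase, was listed at 4.87, 7.64 and 7.39 TPM on day 3 and at 1.647, 1.28 and 1.01 TPM on day 5. This was the steepest fall of the list, with a log2 change of -1.71 (SE 0.15, adjusted p = 2.12e-05). Thymidylate synthase TYMS (-0.71), the origin licensing factor CDC6 (-0.88), the G1 cyclins CCND1 (-0.90) and CCNE1 (-0.79) and the transcription factor E2F2 (-0.60) also fell. DUT, which clears dUTP, rose by 0.52 (SE 0.15). No MCM helicase subunit was called on both scales. Of 34 genes that restrain growth, 3 were called lower as deposited and 3 higher after rescaling, and none on both. The CDK inhibitor CDKN1A had a deposited log2 change of 0.48 (SE 0.13) and a rescaled one of 0.82, and MDM2, the ubiquitin ligase of p53, one of -0.73 and -0.38.

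Of 6 transcription factors on the ATF4-CHOP list 3 rose, and of its 16 targets 0 rose. Of 26 tested genes on the list, 3 were called higher and 2 lower as deposited, and 8 higher and 0 lower after rescaling. The list median was 0.23 above that of all genes. The list also holds genes of the other branches of the response, namely the sensors ERN1 (IRE1) and ATF6 and, among the 6 factors, XBP1. ERN1 is among the 8 called higher after rescaling, and XBP1 among the 2 called lower as deposited. Among the 16 targets, 4 were called higher after rescaling only, namely DDIT4, SLC3A2, SLC7A11 and TRIB3. DDIT4 had the largest deposited log2 change of the targets (0.49, SE 0.13), just under the fold threshold, and SLC3A2 had 0.32 (SE 0.11). Of the 16, 13 lay above the median of all genes and 3 below it, with PSPH the lowest (-0.61). The target median was 0.22 above that of all genes. The 3 that rose on both scales were the factors DDIT3, ATF3 and CEBPB, while ATF4, the central factor of the branch, had a log2 change of 0.005 (SE 0.075) and CEBPG of -0.04 (SE 0.13). DDIT3 (CHOP) was listed at 24.8, 20.96 and 25.5 TPM in H7, H8 and H9 and at 46.1, 43.1 and 41.7 TPM in H10, H11 and H12. All 3 day 5 libraries lay far above the highest day 3 library, and the log2 change was 0.85 (SE 0.11, adjusted p = 0.000272). ATF3 was listed at 4.19, 4.72 and 4.08 TPM and then at 6.21, 6.07 and 9.94 TPM, with H12 well above the other 2 day 5 libraries (log2 change 0.63, SE 0.16, adjusted p = 0.011). CEBPB went from 7.68 to 10.9 TPM across day 3 to between 11.7 and 16.97 TPM on day 5 (log2 change 0.54, SE 0.16). Among the targets, asparagine synthetase ASNS had a log2 change of 0.02 (SE 0.08), the glutathione-degrading CHAC1 one of -0.32 (SE 0.20), the phosphatase subunit PPP1R15A one of -0.07 (SE 0.15) and the pseudokinase TRIB3 one of 0.31 (SE 0.13), each with overlapping groups. INHBE, an activin subunit often raised under ER stress, rose by 0.60 (SE 0.14) and lies outside the list. XBP1, the target of the IRE1 branch, was called lower as deposited only (-0.82, SE 0.13).

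The 250 bases before the start of DDIT3 (chr12:57520515-57520764, minus strand, GRCh38.p14) are shown because this gene led the branch. Capitals mark the CCAAT matches on either strand, which lie 100 and 76 bases before the start, and the AP-1 motif TGANTCA, which lies 241 bases before it.
DDIT3: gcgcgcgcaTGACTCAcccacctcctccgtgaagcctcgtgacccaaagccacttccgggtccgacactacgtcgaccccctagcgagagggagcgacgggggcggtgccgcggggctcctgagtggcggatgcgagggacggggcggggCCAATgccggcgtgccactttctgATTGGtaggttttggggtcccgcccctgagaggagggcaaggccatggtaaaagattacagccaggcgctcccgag

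Genes that decide between survival and apoptosis showed few calls. Of 14 BCL2 family members tested, 2 (14.3%) were called lower and 1 higher as deposited (list median 0.16 above that of all genes). Of all tested genes, 13.1% were called lower and 0.670% higher as deposited. After rescaling 0 members were called lower and 2 higher. PMAIP1 (NOXA), a BH3-only protein that binds MCL1, was listed at 19.5, 16.4 and 17.7 TPM on day 3 and at 23.9, 29.2 and 29.2 TPM on day 5. The groups did not overlap, and it rose by 0.59 (SE 0.12, adjusted p = 0.00402). MCL1 itself, a survival protein of plasma cells, was called lower as deposited only (-0.62, SE 0.14), as was the pore-forming BAK1 (-0.78, SE 0.11). Of 22 caspases, death receptors and their regulators, 4 were called lower as deposited and 1 after rescaling, with a median 0.02 above that of all genes. BIRC5 (survivin), which also serves in mitosis, was the one lower on both (-0.97, SE 0.13).

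The mRNAs of the OST complex, the target of NGI-1, were close to the shift of all genes. Of its 12 subunits, 2 (16.7%) were called lower as deposited, against 13.1% of all tested genes, and 0 after rescaling. The list median was 0.08 below that of all genes as deposited and 0.01 above it after rescaling. The catalytic subunit STT3A was listed at 172.2, 193.9 and 161.5 TPM on day 3 and at 99.3, 105.1 and 141.8 TPM on day 5. H12 was nearest to day 3, and the log2 change was -0.62 (SE 0.11, adjusted p = 0.00221), or -0.26 after rescaling. The other catalytic subunit STT3B had a log2 change of -0.34. The shared subunits had -0.36 (RPN1), -0.53 (RPN2, called lower as deposited), -0.44 (DDOST), -0.09 (DAD1), -0.28 (OST4) and 0.01 (TMEM258). The accessory subunits had 0.03 (OSTC), -0.37 (KRTCAP2), -0.31 (MAGT1) and 0.23 (TUSC3, at about 1 TPM).

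ER folding genes were lower as deposited. Of 23 ER chaperones and degradation factors, 8 were called lower as deposited and 1 after rescaling (list median 0.19 below that of all genes). DERL3, a plasma cell member of the derlin family that moves misfolded proteins out of the ER, was listed at 52.1, 63.7 and 54.1 TPM on day 3 and at 26.6, 26.4 and 27.5 TPM on day 5. It fell by 1.04 (SE 0.11, adjusted p = 4.72e-05) with the 3 day 5 libraries within about 1 TPM of each other. HSP90B1 (-0.80), HSPA5 or BiP (-0.64) and PDIA4 (-0.60) were called as deposited only. In the secretory pathway, 8 of 45 genes (17.8%, median 0.12 below) were called lower as deposited, against 13.1% of all tested genes. After rescaling 0 were called lower and 1 higher. The extremes were the retrieval receptor KDELR1 (-0.67) and the translocon subunit SEC61G (0.43). In sterol and fatty acid synthesis 4 of 31 (12.9%) were called lower as deposited, near the share of all tested genes. After rescaling 1 was called lower and 1 higher. The list median was 0.05 below that of all genes as deposited and 0.03 above it after rescaling. Squalene epoxidase SQLE fell by 1.03 (SE 0.09), from 40.8 to 49.7 TPM on day 3 to between 19.8 and 23.0 TPM on day 5, and IDI1 had the largest rise (0.17).

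Protein breakdown genes gave few calls on both scales. In the proteasome list 13 of 43 genes were called lower as deposited, and 0 lower and 6 higher after rescaling (median 0.15 below that of all genes), with PSMB9, an immunoproteasome subunit, at -0.75 and PSMC6 at 0.46. Of 9 genes linked to bortezomib resistance, 1 (11.1%) was called lower as deposited, against 13.1% of all tested genes, and 0 after rescaling. The list median was 0.04 below that of all genes as deposited, and 0.001 above it after rescaling. The called gene was PSPH, the last enzyme of serine synthesis (-0.61, SE 0.10). The proteasome subunit PSMB5, which bortezomib binds, had a log2 change of -0.34, PHGDH -0.16, PSAT1 0.02, KEAP1 -0.29, DDI2 -0.23, XPO1 -0.28 and BAX -0.33. The gene with the symbol NRF1, nuclear respiratory factor 1, had -0.31, and NFE2L1, the DDI2 substrate that shares this name, 0.27. Of 36 lysosomal genes, 4 (11.1%) were called lower as deposited and 1 after rescaling (median 0.02 below, and 0.05 above after rescaling). Among them CD68 fell by 0.90 (SE 0.15), while CTSS had the largest rise (0.29). Of 25 autophagy genes, 2 were called lower as deposited and 2 higher after rescaling (median 0.13 above), between CALCOCO2 at -0.60 and ULK1 at 0.26. Of 26 heat shock and chaperonin genes, 11 were called lower as deposited and 1 higher after rescaling (median 0.19 below), between HSPA8 at -0.81 and HSPE1 at 0.21.

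Among plasma cell genes, 3 of the 13 surface molecules tested fell. Of all 29 tested, 10 were called lower as deposited, and 4 lower and 1 higher after rescaling (list median 0.18 below that of all genes). Beside CD38, the integrin chain ITGB7 was listed at 549.7, 680.6 and 544.7 TPM on day 3 and at 258.7, 292.1 and 365.9 TPM on day 5. H12 was again the day 5 library nearest to day 3, and the log2 change was -0.96 (SE 0.12, adjusted p = 0.000148). The homing receptor CXCR4 (-0.90, SE 0.15) and the ER-resident FKBP11 (-0.88, SE 0.10) fell too. By contrast, TNFRSF17 (BCMA), the receptor of a plasma cell survival factor, lay between 1846 and 2172 TPM on both days (0.05, SE 0.07), and the transcription factors IRF4 (-0.06, SE 0.22) and PRDM1 (0.13, SE 0.12) had overlapping groups. SUB1 had the largest rise of the list (0.34). Of 6 immunoglobulin genes tested, 1 was called lower as deposited and 0 after rescaling (median 0.09 above). IGKC, the constant gene of the kappa light chain, was listed at 14390, 17020 and 13970 TPM on day 3 and at 7071, 8239 and 10130 TPM on day 5 (log2 change -0.84, SE 0.11, and -0.49 after rescaling). IGHA1, at about 5 TPM, had the largest rise (0.04).

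Interferon-stimulated genes had lower levels on day 5 than on day 3, and their summed level on day 5 was still above that of day 0. Of 35 tested, 16 were called lower and 1 higher as deposited, and 4 lower and 1 higher after rescaling, with a list median 0.21 below that of all genes. Their summed level was 3222, 3399 and 3208 TPM in the day 3 libraries and 2055, 2327 and 2329 TPM in the day 5 libraries, against 671 ± 34.1 TPM on day 0 and 3392 ± 86.7 TPM on day 2 (SD, n = 3 each). IFI6, an interferon-induced protein of the ER and mitochondria, was listed at 202.8, 206.8 and 194.9 TPM on day 3 and at 81.5, 107.9 and 92.8 TPM on day 5. Day 3 values lay within 12 TPM of each other and far above day 5 (log2 change -1.10, SE 0.18, adjusted p = 0.000993). The antiviral factors SAMD9L (-1.06), SAMD9 (-0.93) and IFITM1 (-0.91) fell as well. IFIT2 went the other way, from 0.309, 0.360 and 0.384 TPM to 1.46, 1.35 and 1.30 TPM (0.81, SE 0.11).

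The promoter of IFI6 (chr1:27672193-27672442, minus strand, GRCh38.p14) is shown because IFI6 was the deepest fall of this list. Capitals mark the interferon response-like matches (GAAA, any 2 bases, GAAA), 156, 115 and 93 bases before the start, and a CCAAT match 72 bases before it. The interferon-like motif was found in 2.39% of the promoters of all tested genes, in 3.49% of those that fell and in 3.92% of those that rose.
IFI6: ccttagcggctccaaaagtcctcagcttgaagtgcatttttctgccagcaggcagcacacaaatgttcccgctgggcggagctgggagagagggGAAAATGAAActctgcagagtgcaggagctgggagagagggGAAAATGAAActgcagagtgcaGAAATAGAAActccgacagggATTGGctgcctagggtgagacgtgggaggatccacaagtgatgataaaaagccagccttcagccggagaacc

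In the MHC class I pathway 4 of 14 genes were called lower as deposited, and 1 lower and 1 higher after rescaling (median 0.17 below that of all genes). The ER aminopeptidase ERAP2 fell by 0.93 (SE 0.12), while B2M, the light chain of class I molecules, had a log2 change of 0.19 as deposited and 0.55 after rescaling. Of 20 chemokine and NF-κB response genes tested, 3 were called lower and 1 higher as deposited, and 0 lower and 6 higher after rescaling (median 0.24 above). CXCL10, a chemokine that attracts T cells, rose from 0.424, 0.597 and 0.440 TPM to 2.46, 1.49 and 1.078 TPM, low levels throughout (0.82, SE 0.17, adjusted p = 0.00408). CCL3, a ligand of CCR1, was listed at 308.2, 324.6 and 303.1 TPM and then at 354.7, 417.8 and 478.1 TPM, without overlap, and was called after rescaling only (0.41, SE 0.11). BIRC3 had the largest fall of the list (-0.56). The NF-κB-like motif (GGG, any 5 bases, CC) was found in 69.9% of all promoters, 70.3% of those that fell and 64.7% of those that rose. In the AP-1 and immediate-early list 5 of 22 were called lower and 1 higher as deposited, and 1 and 1 after rescaling (median 0.11 above), with DUSP6 the deepest fall and ATF3 the largest rise.

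Within the translation machinery, ribosomal proteins and the factors that build or serve the ribosome differed. Of 79 ribosomal protein genes, 5 were called higher and 3 lower as deposited, and 22 higher and 0 lower after rescaling. The list median was -0.18 as deposited, or 0.07 above that of all genes. The 5 that rose were RPL39 (0.66), RPS29 (0.60), RPS27 (0.54), RPS15A (0.52) and RPL34 (0.51). RPL39 was listed at 13190, 11720 and 14420 TPM on day 3 and at 20670, 20170 and 20900 TPM on day 5, without overlap (SE 0.07, adjusted p = 6.58e-05). RPS27 alone was listed at 55550 to 66220 TPM on day 3 and at 87250 to 92170 TPM on day 5. At the other end, RPL4 had a log2 change of -0.55. In ribosome assembly 23 of 40 genes were called lower as deposited, 0 after rescaling and 0 higher on either scale (median 0.29 below). GAR1 (-0.86) and fibrillarin, FBL (-0.71), which modify ribosomal RNA, were among them, and POLR1A had the highest value (-0.10). Of 44 translation factors, 10 were called lower as deposited, and 1 lower and 1 higher after rescaling (median 0.20 below). EIF2B3, a subunit of the exchange factor of eIF2, fell by 0.83 (SE 0.12), and EIF3E had the largest rise (0.38). Of 20 aminoacyl-tRNA synthetases, 5 were called lower as deposited and 0 after rescaling (median 0.21 below), between FARSA at -0.66 and WARS1 at 0.04.

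Mitochondrial transcripts stood above the median of all genes. All 15 mitochondrially encoded genes had a log2 change above that median, 0 were called as deposited and 4 higher after rescaling (list median 0.36 above). The largest was the ribosomal RNA MT-RNR1, listed at 1043, 1043 and 1050 TPM on day 3 and at 1464, 1420 and 1391 TPM on day 5 (0.45, SE 0.11), and the lowest was MT-ND3 (-0.13). Nuclear genes of the same respiratory chain were mixed, with 17 of 72 called lower as deposited and 12 higher after rescaling (median 0.08 below), and with COX7C the largest rise at 0.46. Of 75 mitochondrial ribosomal protein genes, 17 were called lower as deposited and 6 higher after rescaling (median 0.07 below, and 0.01 above after rescaling), between MRPS5 at -0.81 and MRPS18C at 0.35. Glycolysis genes lay well below. Of 22 tested, 14 were called lower as deposited, 1 after rescaling and 0 higher (median 0.31 below), and their summed level was 2791, 3116 and 2822 TPM on day 3 and 2006, 2041 and 2209 TPM on day 5. PFKFB3, which makes the main activator of phosphofructokinase, fell by 0.68 (SE 0.17). The lactate carrier SLC16A1 (-0.82), lactate dehydrogenase LDHA (-0.75) and hexokinase HK2 (-0.71) were called as deposited only, and LDHB had the highest value (-0.17).

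Iron, redox and RNA processing genes held single clear rises. Of 33 antioxidant and metal genes, 7 were called lower and 2 higher as deposited, and 0 lower and 4 higher after rescaling (median 0.01 below that of all genes, and 0.07 above after rescaling). The ferritin light chain FTL was listed at 4400, 4554 and 4212 TPM on day 3 and at 5897, 6490 and 7548 TPM on day 5, without overlap (0.59, SE 0.09, adjusted p = 0.000622). Thioredoxin, TXN, rose from 593.9, 554.0 and 627.2 TPM to 867.2, 867.6 and 844.2 TPM (0.54, SE 0.07), whereas the peroxiredoxin PRDX1 had the largest fall (-0.76, called as deposited only). Of 42 splicing factors, 12 were called lower and 1 higher as deposited, and 0 lower and 3 higher after rescaling (median 0.17 below). CLK1 was the one that rose, and SRSF1 had the largest fall (-0.73).

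Noncoding RNAs and histone mRNAs had higher values than the median gene. Of 21 long noncoding RNAs listed and tested, 0 were called lower on either scale, 1 higher as deposited and 7 higher after rescaling (median 0.20 above). ZFAS1, a host of small nucleolar RNAs, was listed at 638.9, 562.9 and 675.7 TPM on day 3 and at 941.8, 963.5 and 898.5 TPM on day 5 (0.58, SE 0.08), and SNHG3 had the lowest value (-0.54). Of 26 replication-dependent and related histone genes, 1 was called higher as deposited and 9 after rescaling, with 0 called lower (median 0.42 above). The one, H2AC18, has the uncertain values given above. The histone share of all TPM was 0.0970% ± 0.000373 on day 3 and 0.105% ± 0.00535 on day 5 (SD, n = 3 each, exact permutation p = 0.1). Of 10 small structured RNAs, 0 were called on either scale (median 0.08 above), between RMRP at -0.61 and RNU1-1 at 0.95, and their share was 0.104% ± 0.0515 and 0.0839% ± 0.0145 (SD, n = 3 each, exact permutation p = 0.6). Across the transcriptome, 15% of the genes that rose were long noncoding and 11.2% pseudogenes, against 6.31% and 3.63% of all tested genes and 2.93% and 1.26% of the genes that fell. The median summed exon length was 2416 bases for genes that rose, 4220 for genes that fell and 4840 for all tested genes. For protein-coding genes alone it was 3130, 4305 and 5147 bases. The part of gene length and copies in the rises was not tested.

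The earlier time points were set beside these values in deposited TPM. The factors by which libraries were divided in rescaling were 1.489 to 1.505 on day 0 and 1.258 to 1.297 on day 2. They were 0.7683 to 0.8908 on day 3 and 0.5733 to 0.7385 on day 5. The courses below can therefore differ after rescaling, and apart from single steps of NRAS and EVI2B they were not read on that scale. On day 5 the mean of 14 of the 15 named falls was the lowest of the 4 groups, as it was for 230 of the 239 genes that fell and for 75.3% of all tested genes as deposited. The mean of all 15 named rises was the highest of the 4 groups, as it was for 70 of the 80 genes that rose and for 6.82% of all tested genes. The choice of these genes by their day 5 values fixes part of these counts. Each of the 15 falls was lower on day 3 than on day 2, as were 10196 of the 11939 tested genes as deposited. In 7 of the 15 the day 2 mean was above day 0. Of these, AMPD1 had means of 287.3, 388.1, 225.0 and 52.98 TPM on days 0, 2, 3 and 5, and CD38 of 45.9, 89.0, 46.8 and 17.6 TPM. S100A4 followed the same course with 18.5, 37.7, 10.6 and 1.89 TPM, and BGLAP with 36.7, 55.4, 13.2 and 3.63 TPM. For NAPSA the means were 40.4, 42.5, 21.6 and 7.86 TPM and for ELFN1-AS1 15.4, 18.7, 11.6 and 4.75 TPM. IFI6 was the exception to the day 5 minimum, with 10.7, 218.5, 201.5 and 94.0 TPM, so that its day 5 level was still above day 0.

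In deposited TPM, the other named falls declined over all 4 time points. Not all of them declined at each step after rescaling. In proportion, the deposited falls of NRAS from day 2 to day 3 and of EVI2B from day 0 to day 2 were smaller than those of the rescaling factors. On the rescaled scale these steps were therefore not falls, and the other courses were not read on it. NRAS had means of 295.2, 178.8, 130.2 and 57.1 TPM on days 0, 2, 3 and 5, GABRR1 158.1, 99.5, 40.8 and 13.3 TPM, and ITGA8 104.3, 66.7, 19.8 and 6.91 TPM. The means of PRPS1 were 134.4, 113.7, 69.3 and 31.9 TPM, and those of AL357143.1 83.4, 58.2, 27.3 and 10.3 TPM. EVI2B had 62.9, 61.3, 35.4 and 14.6 TPM, BTN2A2 49.8, 25.5, 12.4 and 5.16 TPM, and CCR1 37.1, 27.7, 15.3 and 6.16 TPM. CCNB1 and RRM2 followed this course over a wider range. CCNB1 went from 200.4 TPM on day 0 to 54.5, 5.82 and 1.79 TPM on days 2, 3 and 5, and RRM2 from 466.5 to 129.1, 6.63 and 1.31 TPM.

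Rises took different courses in deposited TPM. The mean was lower on day 3 than on day 2 in 4 of the 15 named rises. The same held for 25 of the 80 genes that rose and 10196 of the 11939 tested. SLPI was one of these, with means of 8.94, 30.9, 7.26 and 34.0 TPM on days 0, 2, 3 and 5, so that day 3 lay near day 0 and day 5 near day 2. FTL as deposited likewise was lowest on day 3, at 6764, 7939, 4389 and 6645 TPM, and ATF3 had 3.57, 6.77, 4.33 and 7.41 TPM. DDIT3 had 11.3, 26.0, 23.8 and 43.6 TPM, a step by day 2 and another after day 3, and GTF2IRD2B 6.94, 12.4, 6.91 and 15.3 TPM. Gradual courses were seen for CLK1 (28.9, 44.04, 57.5 and 115.5 TPM), C1orf53 (3.68, 7.15, 13.9 and 25.8 TPM) and FAM171B (1.91, 6.97, 7.62 and 13.9 TPM). PMAIP1 had 10.4, 9.35, 17.8 and 27.4 TPM. A higher mean at each step was seen for TIPARP-AS1 (3.03, 10.9, 17.2 and 32.4 TPM), AL359513.1 (1.83, 4.82, 8.20 and 13.8 TPM), AC244669.1 (2.62, 10.7, 18.5 and 34.3 TPM), AC099336.2 (84.6, 146.1, 222.6 and 368.3 TPM), AC005912.1 (30.02, 55.6, 69.7 and 131.3 TPM), RPS15AP24 (10.9, 18.1, 29.7 and 48.8 TPM) and AC099560.2 (5.44, 10.6, 14.4 and 36.8 TPM). AL096870.10 had 5.26, 10.1, 9.26 and 16.3 TPM. H2AC18 was listed at 14.4, 0 and 0 TPM in the day 0 libraries and at 0, 0 and 8.53 TPM in the day 2 libraries.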

How the data were processed

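Total RNA from 12 libraries was sequenced as read pairs. Per the labels, 200 ng of RNA was used for each. The submitters' processing notes name FastQC, Trimmomatic, STAR and Salmon and the build hg38, without versions or roles. By its name and values the table holds the log2 of TPM plus 1, as deposited by the authors, which keeps no read counts. Each column was matched to its library by name and to its group by the time point label. Tests used limma 3.58.1 in R 4.3.3 on features that reached 1 TPM in 3 or more libraries, with 1 mean per group over all 12 libraries, a mean-variance trend and two-sided moderated tests of day 5 minus day 3, adjusted by the Benjamini-Hochberg method over the 11939 features. Calls needed an adjusted p under 0.05 and a log2 change over 0.5 in size. The procedure was tested on simulated data. A list's median was set against the median of all tested genes, with no test. Gene positions, biotypes and exon lengths came from GENCODE release 29, and promoters from RefSeq (GRCh38.p14). Figures were drawn with matplotlib 3.10.9.

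The comparison, the named genes' rule and the 34 gene lists were chosen with earlier results of these data known. Named are the 15 largest rises and falls (as described in the results), the extremes of each list, members called on both scales, and all OST and bortezomib resistance genes. Other genes named, such as INHBE, TNFRSF17 and MCL1, were chosen after their values were seen. The comparison was repeated without a filter, with a minimum of 5 TPM, with 0.1 as pseudocount, after rescaling, leaving out ribosomal protein and mitochondrial features or the 20 most abundant features, with other fold thresholds, with a fit of 6 libraries, without the trend, and leaving out libraries. Leave-outs after rescaling were added after seeing the data. Some single-gene results are not reported here.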

Additional observations from a re-analysis of the deposited data

How the results depend on the processing

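The counts of 1565 lower and 80 higher calls became 242 and 529 after rescaling, 465 and 278 without ribosomal protein and mitochondrial features, 61 and 6 at a log2 change over 1, and 3163 and 209 with no fold threshold. Without the 20 most abundant features 122 genes were called higher, and with day 3 and day 5 libraries alone 981 were called lower. The median log2 change of -0.25 became -0.068 with no filter, 0.021 after rescaling and -0.081 without ribosomal protein and mitochondrial features. Leaving out 1 library in turn gave 906 to 3016 lower and 62 to 87 higher calls as deposited, with medians of -0.34 to -0.18, and 193 to 259 lower and 381 to 656 higher calls after rescaling. With H8 and H12 both left out there were 2000 lower and 57 higher calls as deposited. The cause of these moves was not tested, except that fold thresholds change the counts by construction. Of the 34 list values, 15 changed sign under at least 1 alternative, namely those of ribosomal proteins, nuclear respiratory chain subunits, mitochondrial ribosomal proteins, OST subunits, the BCL2 family, caspases, immunoglobulins, growth restraint, AP-1, sterol synthesis, lysosome, autophagy, antioxidants, small structured RNAs and bortezomib resistance. None of the 30 named rises and falls changed direction in any of the 15 alternatives at the same fold threshold. No paired analysis was possible because the labels number no replicates and tie no day 3 library to a day 5 library. With TPM alone, depth cannot be set beside a value, and levels under about 1 TPM carry the least information.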
